A study of Mus musculus with 12 samples.

Results

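Cathepsins are a group of proteases, most of them of the lysosome. Of their genes 10, Ctsa, Ctsb, Ctsc, Ctsd, Ctse, Ctsh, Ctsk, Ctsl, Ctss and Ctsz, were followed among the 55487 genes counted in CD11b-positive cortical cells of mice. They were taken by symbol after the Ensembl identifiers had been matched to the GENCODE annotation of GRCm38, and all 10 were among the 15425 genes that passed the filter on low counts. The cells came from male WT mice (C57BL/6J) and male App NL-G-F (App) mice, a knock-in line on that background with a humanized App gene and familial Alzheimer mutations under the gene's own promoter. The cells were taken with beads against CD11b, which border macrophages, monocytes and neutrophils also carry, and are called microglia here as in the labels. Each strain was given intravenous PBS (veh) or 10 mg/kg of rh Bri2 BRICHOS R221E, a variant of the chaperone domain of Bri2, in 24 injections over 12 weeks from 9 months of age, and the cells were isolated 4 weeks later. The groups were veh-treated WT, BRICHOS-treated WT, veh-treated App and BRICHOS-treated App mice, with 3 mice and 3 libraries in each.

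Cathepsins are made as inactive proforms, carried to the acidic compartments of the cell by mannose 6-phosphate and other receptors, and activated there by removal of the propeptide. They fall into families by the residue at the active site. Ctsd and Ctse are aspartic proteases, Ctsa is a serine carboxypeptidase, and Ctsb, Ctsc, Ctsh, Ctsk, Ctsl, Ctss and Ctsz are cysteine proteases of the papain type. Microglia are the phagocytes of the brain, and they depend on these enzymes to break down the material they take up.

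Between 12433402 and 17889654 reads were counted on genes per library, and the detection floor of 3 counts equals 0.168 to 0.241 counts per 1000000 counted reads (CPM). Levels are given as CPM with TMM factors unless a share of reads is named, and with these factors the floor is 0.169 to 0.227 CPM. The summed CPM of 8 microglial markers lay between 28980 and 31907 in veh-treated WT mice and between 27792 and 29890 in veh-treated App mice, so the groups overlapped, although 6 of the 8 single markers were lower and 2 higher in App mice. Astrocyte markers were at 255 to 304 and 716 to 1937 CPM in these groups, oligodendrocyte markers at 7413 to 12956 and 2465 to 4370 CPM, and border macrophage markers at 315 to 371 and 135 to 189 CPM. Neutrophil markers were at 34.2 to 427 and 13.6 to 35.3 CPM and overlapped. At an adjusted p-value under 0.05 (edgeR), which the counts of microglial markers also use, all 5 astrocyte markers were higher in veh-treated App mice. Lower were 1 of 4 oligodendrocyte, 5 of 6 border macrophage and all 6 neutrophil markers. Of all tested genes 20.1% were higher and 16.9% lower, and the oligodendrocyte count is close to the latter share. The defining markers P2ry12 and Mrc1 were 0.481-fold and 0.452-fold of the WT level in veh-treated App mice, S100a8 0.133-fold, Mbp 0.263-fold and Gfap 17.6-fold (edgeR). The part of these cells in the results on cathepsins was not tested, and in bulk samples fewer cells of a type and less RNA per cell cannot be told apart.

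The 10 genes are spread over 7 chromosomes of GRCm38. The aspartic proteases are Ctsd (ENSMUSG00000007891) at chr7:142375911-142388038 and Ctse (ENSMUSG00000004552) at chr1:131638306-131675505. Ctsa (ENSMUSG00000017760) lies at chr2:164832873-164841032, on the same chromosome as Ctsz (ENSMUSG00000016256) at chr2:174427493-174439039. Ctsk (ENSMUSG00000028111) at chr3:95499256-95509362 and Ctss (ENSMUSG00000038642) at chr3:95526786-95556403 are neighbours with 17.4 kb between them. The others are Ctsb (ENSMUSG00000021939) at chr14:63122462-63145923, Ctsc (ENSMUSG00000030560) at chr7:88278085-88310888, Ctsh (ENSMUSG00000032359) at chr9:90054152-90076089 and Ctsl (ENSMUSG00000021477) at chr13:64359337-64370890. In their coding sequences Ctsk and Ctss were the most similar pair, with 61.2% of the longer sequence identical in a global alignment, followed by Ctsl and Ctss with 58.9% and Ctsd and Ctse with 58.5%. No stretch of 50 bases was shared between the transcripts of any pair of the 10 genes.

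Some of the reads may be shared with other genes, and the counting's strand setting is not given in the sources used here. Ctsd shares 34.4% of its exon bases with Gm49369 on the same strand, a gene with 3 counts over all 12 libraries. No strand setting separates the reads of this pair. How reads on the shared bases were counted, and what that does to the level of Ctsd per kilobase, was not tested. Gm47123, an antisense gene with 7 counts in all, covers 26.8% of the exon bases of Ctsl. On the opposite strand Fdft1 covers 12.8% of the exon bases of Ctsb, and Pltp and Neurl2 cover 10.5% and 6.87% of those of Ctsa.

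Promoter sequences from RefSeq (GRCm38.p6) were matched by symbol for 7 of the 10 genes, Ctsa, Ctsc, Ctsd, Ctsk, Ctsl, Ctss and Ctsz, and the 250 bases before each start were searched on both strands. The E-box CACGTG, which is bound by the transcription factors TFEB, TFE3 and MITF among others, was found at 3 of these 7 genes and at 6.86% of all 27025 genes with a listed promoter, counting a gene once however many starts it has. Its extension TCACGTGA, which contains the E-box and is the core of the element shared by many lysosomal genes, was found at 2 of the 7, Ctsa and Ctsd, and at 0.907% of all genes. The M-box TCATGTG was found at 0 of the 7 and at 3.72% of all genes, and GAGGAAGT, a site of the myeloid factor PU.1, at 1 of the 7, Ctsc, and at 2.79%. Such a match describes the letters and shows no binding. The stretches with an E-box are printed 5′ to 3′ on the strand of the gene with the E-box in capitals, from chr7:142387828-142388077 (minus strand) for Ctsd, chr2:164833523-164833772 (plus strand, the second of 2 listed starts) for Ctsa and chr13:64370521-64370770 (minus strand) for Ctsl.
Ctsd: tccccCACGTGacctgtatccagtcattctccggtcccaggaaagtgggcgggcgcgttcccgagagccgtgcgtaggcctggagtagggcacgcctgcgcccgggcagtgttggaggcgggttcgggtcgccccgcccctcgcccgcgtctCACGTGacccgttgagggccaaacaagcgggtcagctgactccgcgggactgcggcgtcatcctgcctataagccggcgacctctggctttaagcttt
Ctsa: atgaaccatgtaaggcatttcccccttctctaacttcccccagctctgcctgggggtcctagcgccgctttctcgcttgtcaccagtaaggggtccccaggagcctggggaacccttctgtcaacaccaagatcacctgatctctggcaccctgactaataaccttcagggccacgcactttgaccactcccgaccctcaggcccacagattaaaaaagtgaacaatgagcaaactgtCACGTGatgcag
Ctsl: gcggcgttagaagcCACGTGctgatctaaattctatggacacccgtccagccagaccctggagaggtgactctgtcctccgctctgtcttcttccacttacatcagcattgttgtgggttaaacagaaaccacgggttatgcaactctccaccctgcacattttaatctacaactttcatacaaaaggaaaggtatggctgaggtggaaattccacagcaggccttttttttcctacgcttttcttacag
The capitals begin 245 and 98 bases before the listed start of Ctsd, 12 bases before that of Ctsa and 236 bases before that of Ctsl. The printed stretches of Ctsa and Ctsl lie wholly, and that of Ctsd mostly, within the gene spans given above. These listed starts are thus internal to the annotated genes, and their use in these cells was not tested. Of the pair, the match nearer to the start of Ctsd is the one that extends to TCACGTGA.

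The cathepsin genes took a large share of the RNA of these cells. In veh-treated WT mice 1.87% ± 0.0789 (SD, n = 3) of all counted reads came from the 10 genes, and in veh-treated App mice 4.07% ± 0.177 (SD, n = 3). In BRICHOS-treated WT mice the share was 1.79% ± 0.0776 (SD, n = 3), and in BRICHOS-treated App mice 4.37% ± 0.210 (SD, n = 3). The 6 WT libraries lay between 1.70% and 1.95% and the 6 App libraries between 3.96% and 4.57%, so the strains did not overlap. These shares are plain proportions of the reads and depend on no normalization factor.

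**Figure D1:**
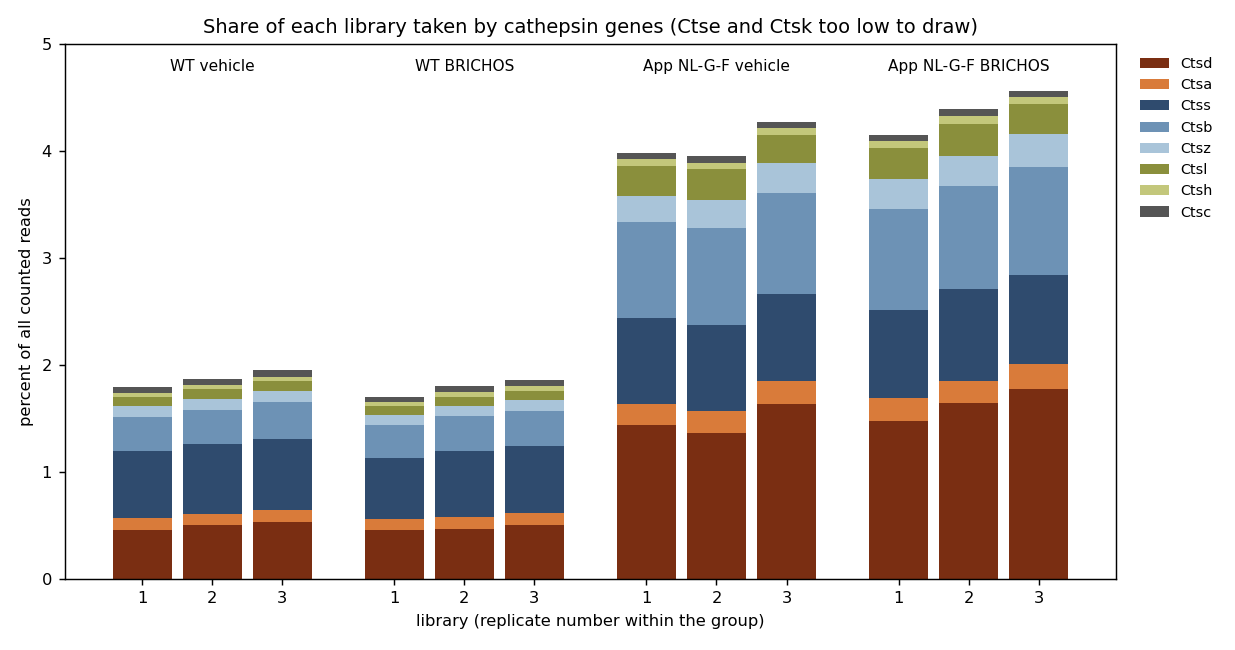
Stacked bars give, for each of the 12 libraries, the percent of all counted reads on 8 cathepsin genes (Ctse and Ctsk, at most 0.118% and 0.0112% of the cathepsin reads, are left out). The 6 WT bars end between 1.70% and 1.95% of reads and the 6 App bars between 3.96% and 4.57%, and the Ctsd segment grows more than the Ctss segment.

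The mixture of cathepsins also differed between the strains. Ctss gave 34.9% ± 0.455 (SD, n = 3) of the cathepsin reads in veh-treated WT mice and was the most counted member there, and it gave 19.9% ± 0.716 (SD, n = 3) in veh-treated App mice. Ctsd went from 26.5% ± 0.809 to 36.2% ± 1.94 (SD, n = 3) and became the most counted member. Ctsb went from 17.4% ± 0.248 to 22.5% ± 0.493 and Ctsl from 4.66% ± 0.0526 to 6.84% ± 0.581 (SD, n = 3). Taken by family, the aspartic proteases gave 25.6% to 27.1% of cathepsin reads in the veh-treated WT libraries and 34.5% to 38.4% in the veh-treated App libraries, while the cysteine proteases gave 67.1% to 68.4% and 56.6% to 60.3%. None of these ranges overlapped. Among the 15425 tested genes ranked by CPM, Ctsd was at rank 8 in the 3 veh-treated WT libraries and at rank 2 in all 6 App libraries. Ctsb moved from ranks 21 to 24 to rank 5, whereas Ctss was at ranks 4 to 5 and then at rank 6.

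Levels of different genes were compared per kilobase of exon. In veh-treated WT mice the order by CPM per kilobase was Ctss at 4479 ± 179, Ctsd at 1969 ± 157, Ctsz at 667 ± 28.8, Ctsb at 503 ± 19.0, Ctsa at 216 ± 5.16 and Ctsl at 126 ± 7.55 (SD, n = 3). Ctsh at 90.7 ± 2.47 and Ctsc at 85.6 ± 6.22 followed with overlapping ranges, and Ctsk at 1.03 ± 0.258 and Ctse at 0.625 ± 0.166 stood at the end, also overlapping (SD, n = 3). The neighbours before Ctsh did not overlap in this order. In veh-treated App mice Ctsd at 6705 ± 665 and Ctss at 6351 ± 99.4 CPM per kilobase led with overlapping ranges (SD, n = 3), Ctsa at 463 ± 24.2 and Ctsl at 457 ± 22.8 overlapped, and Ctse at 15.1 ± 1.81 lay above Ctsk at 0.498 ± 0.103. The middle of the order depends on the length used. With the length of the longest principal transcript in place of all exons, a choice made after the data were seen, Ctsh and Ctsc stood above Ctsl in veh-treated WT mice at 252, 199 and 132 CPM per kilobase, and Ctsd and Ctss no longer overlapped in veh-treated App mice.

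The first comparison, of veh-treated App with veh-treated WT mice, asks how the cathepsin genes differ in microglia of the amyloid model. At an adjusted p-value under 0.05 (edgeR's quasi-likelihood test, adjusted over all tested genes), 9 of the 10 cathepsin genes were higher, where 20.1% of all tested genes were, and 1, Ctsk, was lower, where 16.9% were. The median log2 fold change was 1.32 over the 10 genes and -0.02 over all tested genes. None of the 10 genes had overlapping levels in the 2 groups, where levels without overlap were found for 50.9% of all tested genes. Scaled by library totals alone, the median of all tested genes fell to -0.21, and the 3099 higher and 2611 lower calls over all genes became 2004 and 5198.

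Ctsd, the main aspartic endopeptidase of the lysosome, was at 4209, 4784 and 4896 CPM in the veh-treated WT libraries and at 15071, 14669 and 17554 CPM in the veh-treated App libraries. It was 3.41-fold higher in App mice (95% confidence interval 2.88 to 4.03, log2 fold change 1.77, SE 0.11, edgeR adjusted p = 2.9e-07). The other aspartic protease, Ctse, is an endosomal enzyme of immune and epithelial cells and ranked between 11786 and 12936 of the 15425 tested genes by CPM in veh-treated WT mice. It was at 1.44, 2.49 and 2.01 CPM in veh-treated WT libraries, which stand for 21 to 42 reads, and at 43.4, 45.8 and 54.3 CPM in veh-treated App libraries, which stand for 670 to 733 reads. With 23.9-fold (95% confidence interval 17.9 to 31.8, log2 fold change 4.58, SE 0.189, edgeR adjusted p = 1.4e-08) it had the largest change of the 10 genes, and it still gave only 0.11% of the cathepsin reads of veh-treated App mice.

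Ctsa, a carboxypeptidase that also protects neuraminidase and beta-galactosidase in a lysosomal complex, rose from 991, 1025 and 1038 CPM to 2064, 2199 and 2291 CPM. That is 2.15-fold (95% confidence interval 1.94 to 2.38, SE 0.0668 on the log2 scale, edgeR adjusted p = 2.3e-07), a smaller change than that of Ctsd.

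Among the cysteine proteases the endopeptidase Ctsl changed most. It was at 759, 833 and 852 CPM in veh-treated WT mice and at 2916, 3128 and 2843 CPM in veh-treated App mice, 3.64-fold higher (95% confidence interval 3.25 to 4.07, log2 fold change 1.86, SE 0.0739, edgeR adjusted p = 9.6e-09). Ctsb, which acts as an endopeptidase and as a dipeptidyl carboxypeptidase, was at 2916, 3082 and 3137 CPM and at 9470, 9761 and 10064 CPM, 3.21-fold higher (95% confidence interval 2.88 to 3.58, SE 0.0717 on the log2 scale, edgeR adjusted p = 1.8e-08). Ctsz, the carboxypeptidase also called cathepsin X, went from 914 to 992 CPM up to 2573 to 2990 CPM and was 2.91-fold higher (edgeR adjusted p = 5.5e-08). For these 3 genes every App library lay far above every WT library.

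The remaining cysteine proteases moved less. Ctsh, an aminopeptidase, was 1.62-fold higher (95% confidence interval 1.45 to 1.82, edgeR adjusted p = 2.5e-05), with 396 to 419 CPM in veh-treated WT and 635 to 707 CPM in veh-treated App mice. Ctss, which keeps its activity at neutral pH and trims the invariant chain for antigen presentation, was at 5803, 6242 and 6202 CPM and at 8474, 8664 and 8735 CPM, 1.42-fold higher (95% confidence interval 1.27 to 1.59, log2 fold change 0.50, SE 0.0751, edgeR adjusted p = 3.0e-04). Ctsc, the dipeptidyl peptidase that activates granule serine proteases, was at 464, 492 and 535 CPM and at 612, 689 and 613 CPM, 1.28-fold higher (95% confidence interval 1.09 to 1.51, edgeR adjusted p = 0.0222). The call on Ctsc was not kept with library totals (adjusted p = 0.160) or without 1 of 3 libraries, veh-treated WT replicate 1 (0.0819) or 2 (0.0636) or veh-treated App replicate 2 (0.0860).

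Ctsk, the collagen-degrading cathepsin of osteoclasts, was the only one of the 10 genes at a lower level in App mice, and it was close to the limit of counting. The veh-treated WT libraries held 27, 29 and 15 reads of Ctsk, or 1.85, 1.72 and 1.12 CPM, and the veh-treated App libraries 9, 12 and 12 reads, or 0.583, 0.788 and 0.889 CPM. The log2 fold change of Ctsk was -1.06 (SE 0.354, 95% confidence interval -1.83 to -0.28, edgeR adjusted p = 0.0356). The call was not kept by DESeq2's Wald test with all libraries (adjusted p = 0.0712) or with the compared groups alone (0.121), without a filter on low counts (0.0699), or without veh-treated WT replicate 1 (0.112) or 2 (0.100) or veh-treated App replicate 1 (0.129) or 2 (0.0803). Border macrophage markers were at 315 to 371 and 135 to 189 summed CPM, and mural cell markers at 181 to 202 and 111 to 167. Of these, 5 of 6 and 1 of 4 were called lower (edgeR adjusted p under 0.05), where 16.9% of all tested genes were. The mural count is close to that share. The part of these cells in the result on Ctsk was not tested. The neighbour of Ctsk, Ctss, moved the other way, and the log2 ratio of Ctsk to Ctss reads within a library was lower by 1.55 in veh-treated App mice without overlap.

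**Figure D2:**
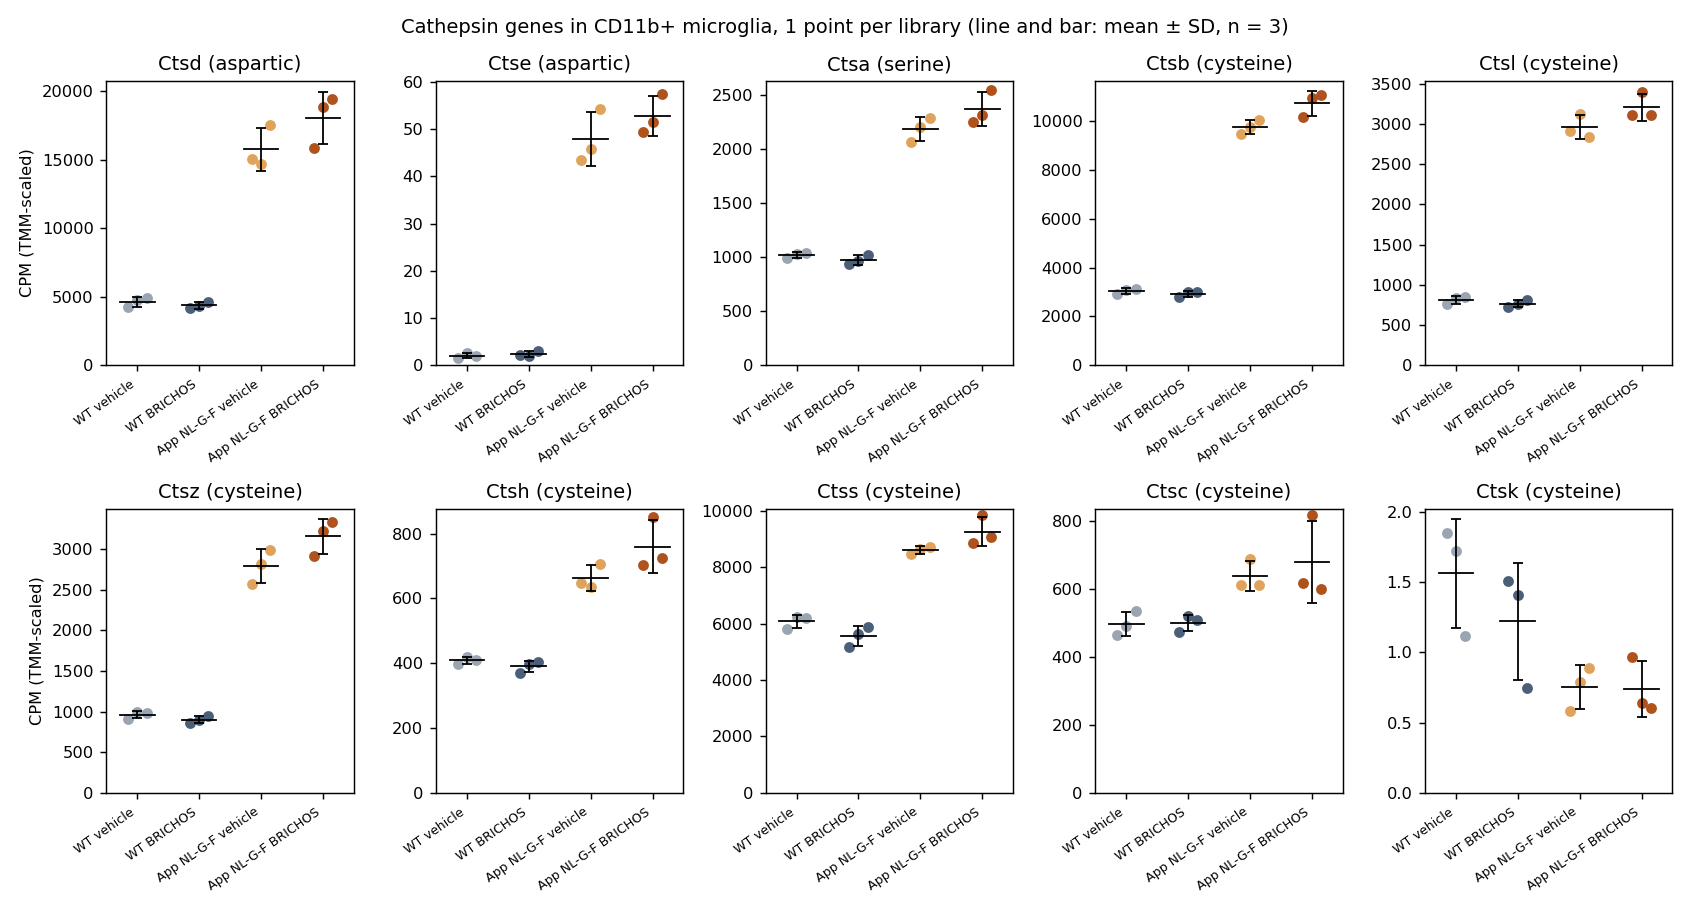
Points give the TMM-scaled CPM of each cathepsin gene in each library on a linear axis from 0, and lines with bars give the mean ± SD of the 3 libraries of a group. For 9 genes both App groups lie above both WT groups, most widely for Ctse (43.4 to 57.4 against 1.44 to 2.98 CPM), and Ctsk lies at 0.583 to 1.85 CPM throughout.

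The order of the changes was checked with ratios of reads within each library, on which no normalization acts. The ratio of Ctse to Ctsl rose by 2.76 on the log2 scale between veh-treated WT and App mice. Ctsl and Ctsd, and Ctsd and Ctsb, were neighbours in the order of fold changes whose ratios overlapped between the groups, so these changes differed by less than the spread between libraries. From Ctsb on to Ctsz, Ctsa, Ctsh and Ctss each step down had ratios without overlap, with differences of 0.14, 0.44, 0.40 and 0.19 on the log2 scale. Ctss and Ctsc overlapped again. The ratio of Ctsd to Ctss reads rose by 1.26 on the log2 scale, from -0.40 ± 0.0619 to 0.87 ± 0.127 (SD, n = 3), and between the BRICHOS-treated groups by 1.31.

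The second comparison of the strains was between the BRICHOS-treated groups, whose means rest on other libraries than those of the first, while the spread was estimated over all 12 libraries. Fitted with the compared groups alone, edgeR gave the same numbers of called cathepsins. In it 9 of the 10 cathepsin genes were higher, where 20.8% of all tested genes were, and 0 were lower, where 21.8% were (edgeR). At an unadjusted p-value under 0.05 the counts were also 9 and 0, where 24.1% and 26% of all tested genes were higher and lower, and DESeq2 called no member lower. The median log2 fold change was 1.55 over the 10 genes and -0.04 over all tested genes, and with library totals the latter was -0.31. The folds of Ctse (22.6), Ctsl (4.21), Ctsd (4.14), Ctsb (3.68), Ctsz (3.51) and Ctsa (2.44) came in the same order as between the veh-treated groups, where they were 23.9, 3.64, 3.41, 3.21, 2.91 and 2.15. The steps without overlap in the ratios of reads were not all the same. Here the ratio of Ctsb to Ctsz overlapped (difference 0.07 on the log2 scale). Those of Ctsd to Ctsb (0.17) and of Ctss to Ctsc (0.31) did not. Ctsh was 1.95-fold, Ctss 1.67-fold and Ctsc 1.36-fold higher (edgeR adjusted p = 1.8e-06, 1.5e-05 and 0.0069). Ctsc was not called with library totals (adjusted p = 0.155). Ctsk had a log2 fold change of -0.71 (SE 0.358, edgeR adjusted p = 0.132), with 13 to 25 reads in the BRICHOS-treated WT libraries and 8 to 15 in the BRICHOS-treated App libraries, and was called lower with library totals (adjusted p = 0.0379) and without BRICHOS-treated WT replicate 3 (0.0480).

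**Figure D3:**
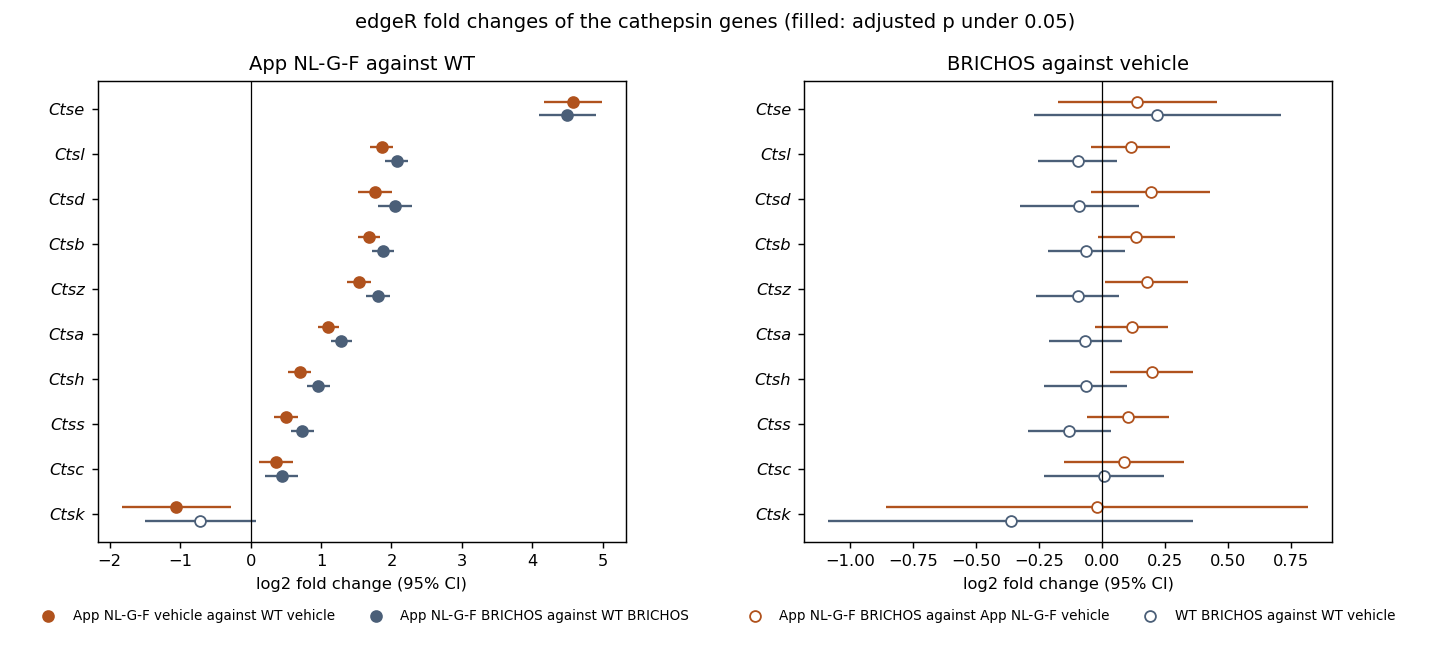
Points give the log2 fold change of each cathepsin gene with its 95% confidence interval, between the strains on the left and between treatments on the right, and filled points have an edgeR adjusted p-value under 0.05. The strain effects run from 4.58 for Ctse to -1.06 for Ctsk and are filled for all but Ctsk in the BRICHOS-treated mice, whereas no treatment effect is filled and, Ctse and Ctsk aside, the intervals lie between -0.32 and 0.43.

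The treatment was compared with veh within each strain, to ask whether the cathepsin genes respond to rh Bri2 BRICHOS R221E. In App mice 0 of the 10 genes were called in either direction by edgeR, where 0.00648% of all tested genes were, and 2, Ctsh and Ctsz, were higher at an unadjusted p-value under 0.05, where 3.18% of all tested genes were. DESeq2 called 0 as well, and over all genes it called 5 higher and 119 lower of 14086. In WT mice edgeR called 0 of the 10, where 0% of all tested genes were called, 0 had an unadjusted p-value under 0.05, where 11.4% of all tested genes had one, and DESeq2 called 0, and 68 higher and 16 lower of 16241 over all genes. These comparisons share their veh-treated libraries with the comparison of the strains.

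In App mice the estimates were small and mostly above 0. Ctsh was at 646, 635 and 707 CPM with veh and at 702, 853 and 725 CPM with BRICHOS, 1.15-fold (95% confidence interval 1.02 to 1.28, edgeR unadjusted p = 0.0227, adjusted p = 0.370). Ctsz was at 2573, 2814 and 2990 CPM with veh and at 2920, 3221 and 3333 CPM with BRICHOS, 1.13-fold (log2 fold change 0.18, 95% confidence interval 0.01 to 0.34, edgeR unadjusted p = 0.0372, adjusted p = 0.426). Both pairs of groups overlapped. Ctsb and Ctss were the 2 members whose groups did not overlap, where 6.37% of all tested genes were higher without overlap. Ctsb went from at most 10064 CPM with veh to 10158, 10976 and 11060 CPM with BRICHOS, 1.10-fold (95% confidence interval 0.988 to 1.22), and Ctss from at most 8735 CPM to 8882, 9854 and 9071 CPM, 1.07-fold (95% confidence interval 0.959 to 1.20).

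For Ctsd, the most counted member, the treatment effect in App mice was 1.14-fold (95% confidence interval 0.971 to 1.35), with 15833, 18844 and 19399 CPM in the BRICHOS-treated libraries. The intervals of Ctsa (0.982 to 1.20), Ctsl (0.972 to 1.21), Ctsc (0.902 to 1.25) and Ctse (0.885 to 1.37) held a fold of 1 as well. BRICHOS-treated App replicate 2 was the highest of its group for Ctsh (853), Ctss (9854), Ctsl (3403) and Ctsc (818 CPM), and without it the log2 fold change of Ctsc went from 0.09 to -0.06. For Ctsk, with 8 to 15 reads per library, the interval of the fold ran from 0.553 to 1.77, so that a change of such a size was not detectable at this depth.

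In WT mice the estimates lay mostly below 0. Ctss was at 5184, 5626 and 5873 CPM in the BRICHOS-treated libraries, 0.914-fold of the veh level (95% confidence interval 0.816 to 1.02), and the groups overlapped as they did for all 10 genes, where 17.5% of all tested genes had groups without overlap. Ctsl, Ctsz and Ctsd were at 0.936-fold, 0.936-fold and 0.940-fold, and Ctsa, Ctsh and Ctsb at 0.955-fold, 0.957-fold and 0.958-fold, all with intervals that held 1. Of the 10 genes 9 had an estimate above 0 in App mice, where 52% of all tested genes did, and 2, Ctsc and Ctse, had one above 0 in WT mice, where 49.1% did. The 10 genes were counted in the same libraries, so these signs are not separate observations. The 8 microglial markers had like signs, with 7 of 8 estimates above 0 in App mice (median log2 fold change 0.05) and 0 of 8 in WT mice (median -0.10), beside medians of 0.13 and -0.08 for the cathepsins. In WT mice the fibroblast markers went from 7.81 to 10.7 summed CPM with veh to 16.9 to 24.6 with BRICHOS. Choroid plexus and ependyma markers went from 844 to 3841 to 3186 to 6650 and overlapped. Border macrophage markers went from 315 to 371 to 411 to 506 without overlap. Higher at an unadjusted p-value under 0.05 (edgeR) were 4 of 4, 3 of 4 and 4 of 6 of these markers, where 1010 of all 15425 tested genes were. The part of these cells in the treatment estimates was not tested.

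Whether the treatment acted differently in WT and App mice was tested as an interaction in the same edgeR fit. It was called for 0 of the 10 genes, where 0.00648% of all tested genes were called, and DESeq2 called 0 as well, and 28 positive and 221 negative differences of 15164 over all genes. At an unadjusted p-value under 0.05 it was positive for 3, Ctsz (log2 difference 0.27, SE 0.106, edgeR unadjusted p = 0.0256, adjusted p = 0.272), Ctsh (0.26, SE 0.106, unadjusted p = 0.0310, adjusted p = 0.288) and Ctss (0.23, SE 0.106, unadjusted p = 0.0491, adjusted p = 0.336), where 5.23% of all tested genes were. The microglial markers moved with them, with a positive difference for 8 of 8, a median of 0.19 beside 0.22 for the cathepsins, and 2 of 8 at an unadjusted p-value under 0.05. Their part in the result was not tested. For Ctsd the difference was 0.28 with a 95% confidence interval from -0.05 to 0.61, and for Ctse it was -0.08 with an interval from -0.66 to 0.50.

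Outside the 10 genes 4 other cathepsin genes were listed, of which 3 were tested. Ctsf and Ctso, further lysosomal cysteine cathepsins, were at 171 to 205 and 112 to 135 CPM in the veh-treated groups. Ctsf was 0.866-fold of the WT level in veh-treated App mice (edgeR adjusted p = 0.0051) and Ctso 1.10-fold (adjusted p = 0.0755). Between the BRICHOS-treated strains Ctsf was at 0.980-fold (adjusted p = 0.642) and Ctso at 1.09-fold (adjusted p = 0.0735), and the levels of Ctso did not overlap in either comparison. Ctsw, a cathepsin of cytotoxic lymphocytes, had 205 reads over all 12 libraries and a log2 fold change of 1.15 (SE 0.501, adjusted p = 0.0944) between the veh-treated and of 1.40 (SE 0.467, adjusted p = 0.0308) between the BRICHOS-treated strains, higher in App mice without overlap in both. Ctsg, a serine protease of neutrophil granules, had 31 reads and was not tested. The 9 placental relatives of Ctsl on chromosome 13 that the table lists, Ctsj, Ctsm, Ctsq, Ctsr, Cts3, Cts6, Cts7, Cts8 and Ctsll3, had 0 reads in every library, which allows at most 0.169 to 0.227 CPM each.

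The endogenous inhibitors are cystatins, which block cysteine cathepsins, and serpins. Of 9 listed inhibitor genes 7 were tested and 5 of these were higher and 0 lower in veh-treated App mice (edgeR; 5 and 0 at an unadjusted p-value under 0.05), where 20.1% and 16.9% of all tested genes were. Cst7, cystatin F, was at 14.9, 17.2 and 33.1 CPM in veh-treated WT and at 2324, 2349 and 2568 CPM in veh-treated App libraries, 112-fold higher (95% confidence interval 70.6 to 176, edgeR adjusted p = 2.2e-08). Serpina3n, a serpin that astrocytes also make, was 27.4-fold higher (95% confidence interval 11.6 to 64.5, adjusted p = 5.0e-05), and the astrocyte markers were higher in the same libraries. Cstb, cystatin B of the cytosol, was 2.15-fold higher (adjusted p = 6.7e-06), close to Ctsa in size. Cst3, the secreted cystatin C and the most counted inhibitor at 13256 to 15043 CPM in the veh-treated groups, had a fold of 0.951 (95% confidence interval 0.820 to 1.10).

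Of 7 genes listed as processing and complex partners, among them the further lysosomal enzymes Ppt1 and Tpp1, 5 were higher and 1 lower in veh-treated App mice. Of all tested genes 20.1% and 16.9% were. Glb1, the beta-galactosidase of the complex with Ctsa, was 3.44-fold higher (95% confidence interval 3.01 to 3.92, edgeR adjusted p = 4.5e-08), Cd74, the invariant chain that Ctss trims, was 7.40-fold (5.29 to 10.4, adjusted p = 1.6e-06) and Ppt1, a lysosomal thioesterase, 1.73-fold higher (adjusted p = 1.8e-07). Lgmn, the legumain that cuts the proforms of several cathepsins, was the lower gene, at 0.840-fold (95% confidence interval 0.770 to 0.915, adjusted p = 0.0048). Lgmn and Cst3 were named after their values were seen.

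Of 12 genes for the sorting of lysosomal enzymes, 6 were higher, where 20.1% of all tested genes were, and 2 lower, close to the share of 16.9%. Gnptab and Gnptg, which encode the transferase that makes the mannose 6-phosphate tag, were 2.32-fold and 1.65-fold higher (edgeR adjusted p = 3.6e-05 and 6.2e-07), and Gga2, a sorting adaptor, was 1.75-fold higher (adjusted p = 2.7e-05). The median log2 fold change over the 12 genes was 0.14, against 1.32 over the cathepsins and -0.02 over all tested genes.

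Of 5 transcription factors of lysosomal and macrophage genes, 1 was higher, close to the share of 20.1% over all tested genes, and 2 were lower, where 16.9% were. Mitf was at 39.0, 41.3 and 38.8 CPM in veh-treated WT and at 71.1, 74.6 and 76.5 CPM in veh-treated App libraries, 1.86-fold higher without overlap (edgeR adjusted p = 2.0e-07). Tfe3 was at 0.807-fold (adjusted p = 0.0106) and the scarce Tfec at 0.561-fold (adjusted p = 0.0363), and DESeq2 did not call Tfec. Tfeb was at 0.926-fold (95% confidence interval 0.824 to 1.04, adjusted p = 0.287) and Spi1, which encodes PU.1, at 0.884-fold (log2 fold change -0.18, SE 0.0816, adjusted p = 0.109). Between the BRICHOS-treated strains 17 genes of these 4 lists, which hold 31 tested genes, were higher and 3 lower (edgeR), against 17 and 5 between the veh-treated strains. Of all tested genes 20.8% were higher and 21.8% lower between the former, and 20.1% and 16.9% between the latter. With the treatment of App mice edgeR called 0 of the 31 genes, where 0.00648% of all tested genes were called. In it 4 had an unadjusted p-value under 0.05 (edgeR), where 10.8% of all tested genes had one, and DESeq2 called 0. In WT mice edgeR called 0 of the 31, where 0% of all tested genes were called. Of the 31, 3 had an unadjusted p-value under 0.05 (edgeR), where 11.4% of all tested genes had one. DESeq2 called 1, Cd74, at 1.72-fold by edgeR (adjusted p = 0.243), and over all genes it called 68 higher and 16 lower of 16241. Of the 4 in App mice, Serpina3n was lower, at 0.365-fold (edgeR adjusted p = 0.294), and Cstb, Glb1 and Spi1 were higher with BRICHOS. All 5 astrocyte markers were lower at an unadjusted p-value under 0.05 (edgeR) in the same comparison, where 1183 of all 15425 tested genes were. They were at 347 to 871 summed CPM against 716 to 1937, and their part in the value of Serpina3n was not tested. The App gene itself had a log2 fold change of -0.34 between the veh-treated strains (SE 0.161, adjusted p = 0.120).

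**Figure D4:**
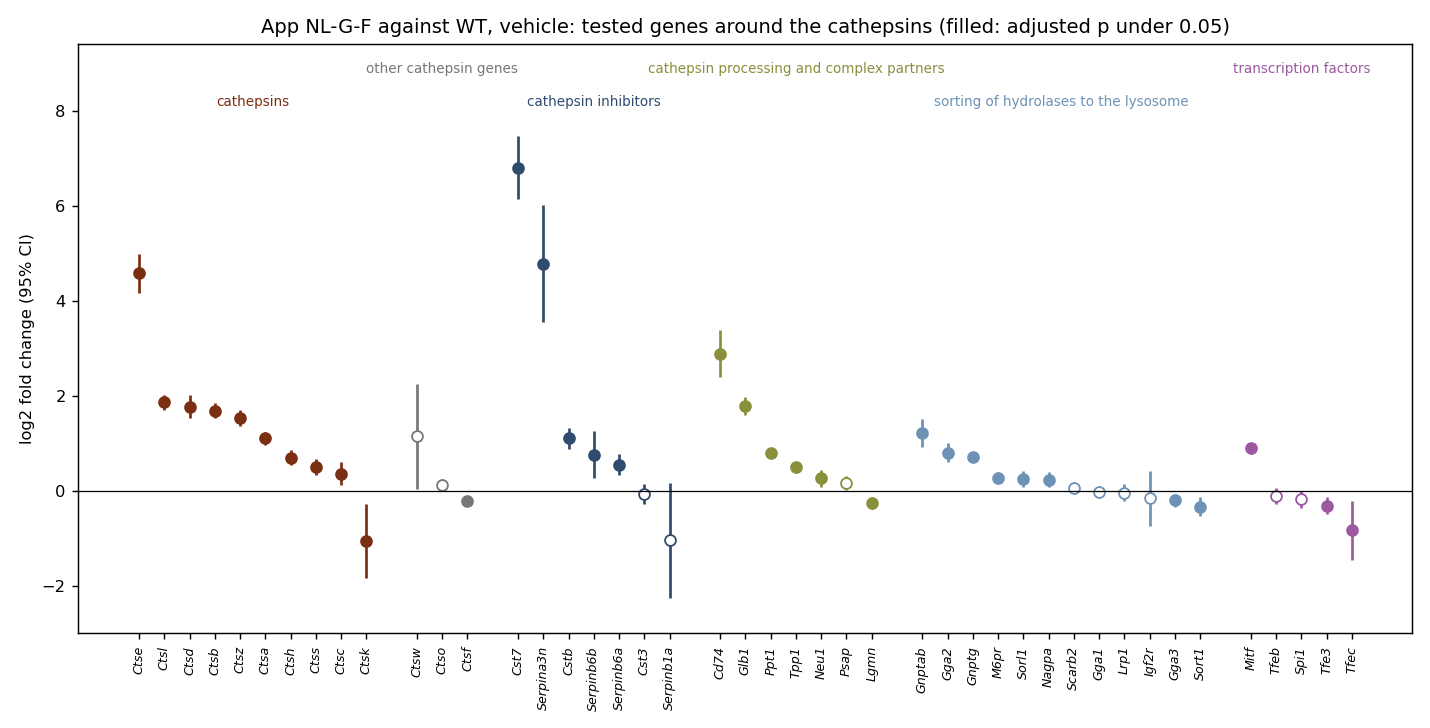
Each point is the edgeR log2 fold change of a tested gene between veh-treated App and WT mice with its 95% confidence interval, grouped into cathepsins, other cathepsin genes, inhibitors, partners, sorting genes and transcription factors, and filled where the adjusted p-value is under 0.05. Cst7 at 6.80, Serpina3n at 4.78 and Ctse at 4.58 stand highest, and 9 of 10 cathepsins lie above 0 while the sorting genes spread around 0.14.

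The genes most like each of the 3 cathepsins with the largest changes were sought among the other 15424 tested genes, by the root mean square difference of the centred log2 CPM over the 12 libraries. Nearest to Ctsd was Glb1 at 0.0461, followed by Dpp7, a lysosomal dipeptidyl peptidase, at 0.0662 and Lrpap1 at 0.0860. Nearest to Ctsl were Serpine2 at 0.0841, the endosomal tetraspanin Cd63 at 0.0847 and Siglecf at 0.0848. Nearest to Ctse were Lox at 0.286, Igf1 at 0.302 and Corin at 0.302. Between the veh-treated strains Lox and Igf1 had log2 fold changes of 4.49 and 4.27, near the 4.58 of Ctse, but Corin had 8.55. The distance used log2 CPM with a prior count of 2, which draws very low levels together, so it does not show equal fold changes. Among the cathepsins themselves Ctsb and Ctsz were the closest pair at 0.0673 and Ctsb and Ctsd the next at 0.0946.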

How the data were processed

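RNA of CD11b-positive cortical cells from 12 mice, 3 in each of 4 groups, was sequenced from stranded mRNA libraries. The deposited values are raw counts of reads per gene. According to the submitters' processing notes the reads were checked with FastQC 0.11.8, aligned to GRCm38 with STAR 2.6.1d and counted with featureCounts 1.5.1 by the authors, with strand and multi-mapping settings not given in the sources used here. The notes also name DESeq2, which the authors used for their own comparisons.

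The counts were fitted here with edgeR 4.0.16 (R 4.3.3) by quasi-likelihood, with a mean for each group, TMM factors and genes kept by filterByExpr at a minimum count of 10. P-values were adjusted by Benjamini and Hochberg over 15425 genes, and calls were made at 0.05. The script was tested on simulated counts. The cathepsins and the other gene lists were chosen with earlier results of these data known. Of each other pathway list the 3 called genes with the largest log2 fold change were named, and whole lists of 5 genes or fewer. Replicate numbers were not taken as pairs of mice, since the labels do not say what they stand for. Each library comes from a separate mouse, so the errors are between mice. Alternatives were DESeq2 1.42.0, other scalings, other filters, a replicate block and each library left out. Library totals of 12433402 to 17889654 reads set the counting error, and floors of 3 counts cover counting error only.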

Additional observations from a re-analysis of the deposited data

How the results depend on the processing

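Of 735 alternative estimates of the cathepsins' log2 fold changes, 705 kept their direction and their side of the threshold, 12 lost their call (Ctsc and Ctsk), 2 gained one (Ctsk) and 16 changed sign, all of the last in effects that were not called. The number of cathepsins lower in veh-treated App mice was 0 with DESeq2 on all libraries or the compared groups, without a filter and with 10 counts required in every library, where Ctsk was not tested. It lay between 0 and 1 when single libraries were left out, as did the number lower between the BRICHOS-treated strains, which was 1 with library totals. The number higher lay between 8 and 9 between the veh-treated strains when single libraries were left out. With a log2 fold change of at least 1 required as well, 6 were higher in either comparison of the strains, and with library totals 8. As a share of TMM-scaled library sizes, a choice made after the data were seen, the cathepsins took 1.75%, 1.64%, 4.34% and 4.83% in veh-treated WT, BRICHOS-treated WT, veh-treated App and BRICHOS-treated App mice, and with DESeq2 size factors 1.74%, 1.63%, 4.34% and 4.87%. The group means in CPM moved by more than 1 SD in 25 of 80 rescalings.

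With single libraries left out, the treatment effect in App mice lay between -0.26 and 0.11 for Ctsk (0.02 and 0.11 without veh-treated replicates 2 and 3, 0.09 and 0.10 without BRICHOS-treated replicates 2 and 3) and between -0.0598 and 0.17 for Ctsc. In WT mice it lay between -0.0018 and 0.43 for Ctse and between -0.0429 and 0.0624 for Ctsc, which was at -0.0080 without a filter. The interaction lay between -0.29 and 0.14 for Ctse and between -0.0715 and 0.16 for Ctsc, which was at -0.0044 with library totals. The cause of these changes was not tested.

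The replicate numbers gave correlations of deviations between -0.0148 and 0.227 over the 4 comparisons, and they were not taken as pairs. In the 4 comparisons 5, 3, 3 and 5 of 6 libraries correlated best with their own number among the 3 of the other group. Whether libraries of the same number share a batch was not tested. A replicate block left 9 cathepsins higher and 1 lower between the veh-treated strains and 9 and 0 between the BRICHOS-treated strains, with 3209 and 2782 genes called over the whole table in the former. Ctsk had 8 to 29 reads in a library, and Ctse 21 to 52 in the WT libraries. How much of their spread is counting error was not tested.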
